A study of Sus scrofa with 80 samples.

Results

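Proteases of the extracellular matrix and their inhibitors form the subject of this account, namely the ADAM, ADAMTS, ADAMTS-like, MMP and TIMP genes of the Göttingen minipig. A gene was a member when the name printed on the array began with ADAM, ADAMTS, MMP or TIMP, and 52 of the 23722 genes measured met this rule. They are 14 ADAM, 12 ADAMTS, 4 ADAMTS-like, 18 MMP and 4 TIMP genes. The choice rests on the name alone and used no measured value.

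ADAM proteins are membrane-anchored proteins with a disintegrin and a metalloprotease domain. Some shed growth factors and receptors from the cell surface, others have lost protease activity and act in adhesion, and a subgroup is found on male germ cells, where it takes part in sperm maturation and in sperm-egg interaction. ADAMTS enzymes are secreted relatives that cut proteoglycans, procollagens or von Willebrand factor, ADAMTS-like proteins lack the catalytic domain, MMPs cut collagens and other matrix proteins, and TIMPs inhibit these enzymes by binding the zinc-containing active site.

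The 80 arrays, a custom Agilent design read in one color, carried total RNA of 9 tissues. There were 3 brain regions (hypothalamus, cerebellum and cerebral cortex), the blood-forming bone marrow and spleen, and liver and kidney. Each of these 7 was sampled in 1 animal per sex at ages of 1 and 4 weeks and of 2 and 4 months, with a further male aged 2 years. Testis has 1 male per age, the 2-year male included, and ovary has 1 female per age without a 2-year animal. The 8 technical repeats of the 2-year kidney were averaged, which left 72 tissue samples, and 1 renal pelvis array was kept apart. All animals were untreated Göttingen minipigs of a single breeder, but the 2-year male was raised in part at another site with other feed and killed with another pentobarbital product. The labels do not tie samples to animals, so tissues of the same age and sex may come from the same animal and their results are not independent of each other. Without a record of separate animals, p-values measure only the spread between these samples.

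Values are log2 intensities after correction for background and quantile normalization, so a difference of 1 is a doubling. A gene was counted as detected in a sample when at least 0.5 of its spots were well above background by the scanner software. Between 48.8% and 65.8% of the gene spots of an array were well above background. The 16 arrays of 2-year tissue lie on 2 slides of their own, so age and slide cannot be told apart at 2 years, and those samples are given as values. Marker genes separated 6 of the 9 tissues from all others. The hypothalamus list did not (mean log2 value 5.81 to 6.80 against at most 6.65 elsewhere), and the B cell list of spleen overlapped with other tissues. The neutrophil list of bone marrow overlapped only through the 2-year male (7.17). The younger bone marrow samples read 11.89 to 12.67 on that list, against at most 9.53 elsewhere. In bulk tissue, fewer cells of a type and less RNA per cell cannot be told apart.

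Of the 52 members, 12 were detected in all 72 samples, 48 in at least 1 sample and 4 in none. The 4 never detected were ADAM21, ADAM33, ADAMTS15 and MMP12. TIMP1, TIMP2 and TIMP3 belonged to the 12 found everywhere. MMP8 and MMP9 were also among the 12, but each through 1 of its 2 probes. That probe was above background on all 80 arrays, the other one on 12 for MMP8 and on 7 for MMP9. Most members carry 2 probes, and 17 had a pair of probes whose correlation over the 80 arrays was below 0.5, a description that is influenced by how far a gene rises above background. All probes of ADAM22, MMP3, MMP10 and MMP20 are marked on the array as open to cross-hybridization, as are 2 of the 4 probes of ADAMTSL4.

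**Figure D1:**
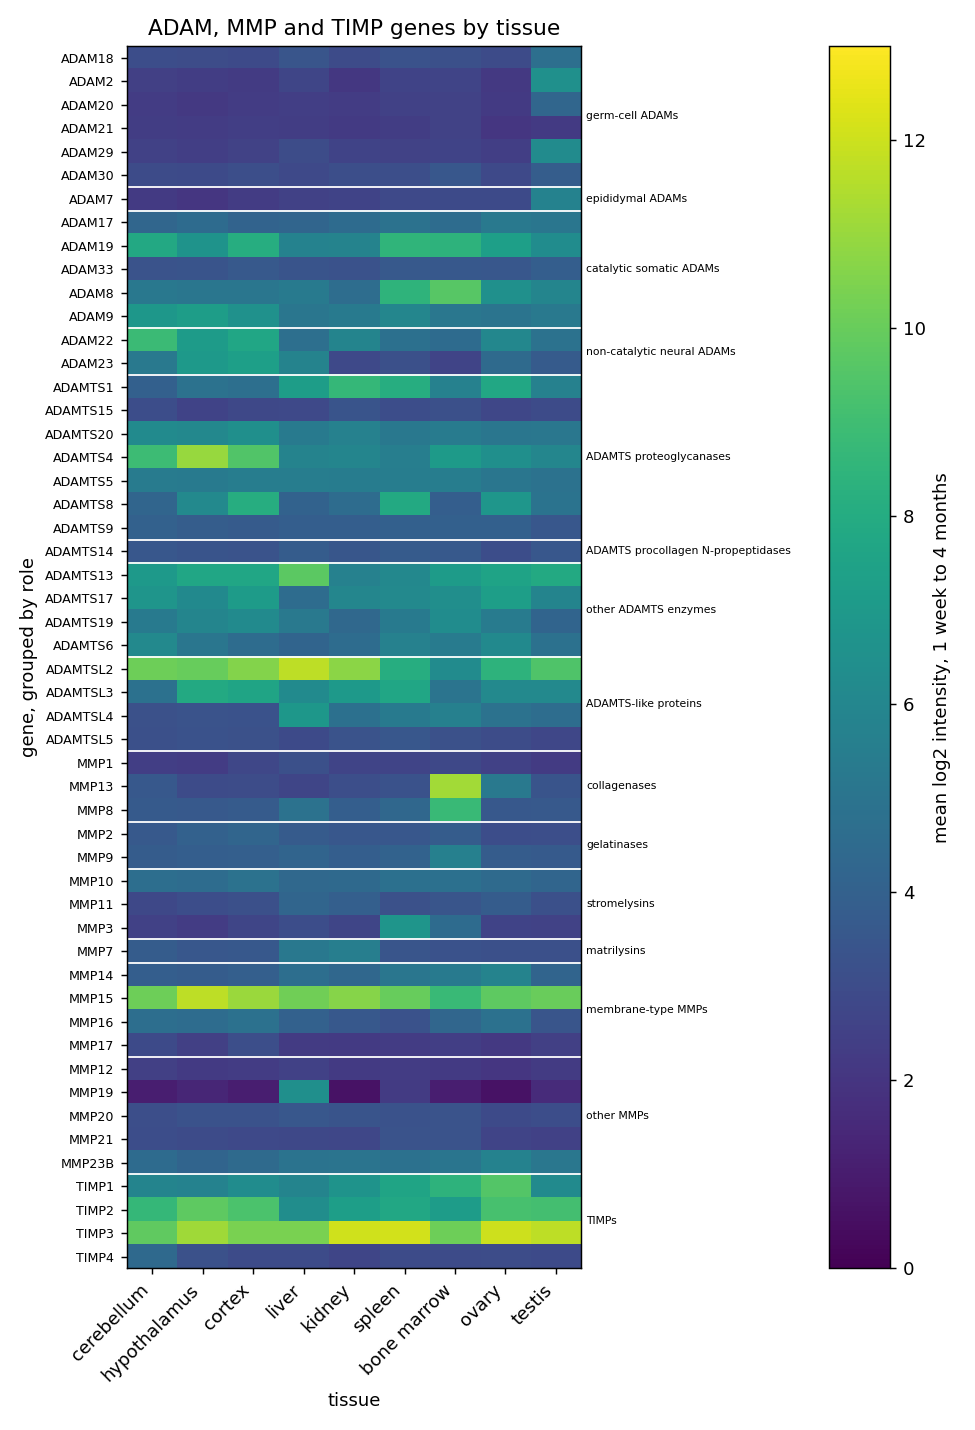
Mean log2 intensity of the 52 members (rows, grouped by role) in 9 tissues (columns), over the samples from 1 week to 4 months, 8 per tissue and 4 each for ovary and testis. Bright cells stand out for MMP13 and MMP8 in bone marrow, MMP3 in spleen, MMP19 in liver and ADAMTS4 in the brain, while TIMP3 and MMP15 are bright in every column.

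The first question was which members are confined to testis. A member was called testis-only when its highest testis value was detected and lay at least 2 log2 units above its highest value in the 67 samples of the other tissues. ADAM2, ADAM7, ADAM18, ADAM20 and ADAM29 met this rule, which is 5 of 52 or 9.62%, and 1205 of 23722 genes (5.08%) met it in all. By this rule of at least 0.5 of the spots, none of the 5 was detected in any of the 67 other samples, although at least 1 spot was above background in 51 of them for ADAM29, 31 for ADAM18, 11 for ADAM2 and 0 for ADAM7 and ADAM20. The margin was 6.60 for ADAM29, 4.89 for ADAM2, 4.55 for ADAM7, 4.05 for ADAM20 and 2.61 for ADAM18, and the next members, outside the threshold, were ADAM30 with 0.58 and ADAM33 with 0.46.

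ADAM29, a germ-cell ADAM without a functional catalytic site, had testis values of 2.43 and 2.54 at 1 and 4 weeks, of 10.29 and 9.90 at 2 and 4 months, and of 9.83 in the 2-year male. The 3 samples from 2 months on were all high and the first 2 were within the range of other tissues, where the lowest, median and highest values were 1.96, 2.60 and 3.68. Tested as 2 and 4 months against 1 and 4 weeks, ADAM29 rose by 7.60 ± 0.23 (SE, n = 2 against 2, limma adjusted p = 0.00012). ADAM2, known as fertilin beta and needed for sperm to pass into the oviduct in mice, read 2.77, 5.44, 8.60, 9.30 and 8.29 at the 5 ages. It was thus detected from 4 weeks on, earlier than the other members of the group, and rose by 4.85 ± 0.88 (SE, n = 2 against 2, limma adjusted p = 0.013). That call was lost without the 2-month or the 4-month sample (change 3.51 to 6.18 over the 4 fits, highest adjusted p = 0.09).

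ADAM7 is best known from the epididymis, whose epithelium passes it to maturing sperm. Its testis values were 2.97, 4.19, 8.06, 7.85 and 2.42, high at 2 and 4 months and back within the range of the other tissues (1.44 to 3.50) at 2 years. In that 2-year library ADAM29 still read 9.83, so the low ADAM7 value was not shared by the rest of the group. The rise at 2 and 4 months was at least 20.8-fold, because no ADAM7 spot was above background at 1 and 4 weeks (log2 change 4.38, limma adjusted p = 0.0033), and with the 2-year sample added to the older group it was 2.53 with an adjusted p of 0.27. Set against the other 67 samples, in which no spot was above background either, ADAM7 at 2 and 4 months was at least 28.2-fold higher. The testis-only rule had used these same values, so this fold describes their size and gives no further support. CRISP1, GPX5 and LCN8, genes of the epididymal epithelium that were looked up after the ADAM7 values had been seen, read between 2.36 and 4.21 in the 5 testis samples. CRISP1 and LCN8 were detected in none of them, and GPX5 in 3 of the 5. Each of the 15 values was below the gene's highest value in other tissues.

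ADAM20 read 2.11, 2.42, 6.96, 5.58 and 6.38 in testis. It was the other member of the group with no spot above background in the 67 other samples, against which the 2- and 4-month samples were at least 9.09-fold higher. For ADAM20 too, this fold restates values that the testis-only rule had used. Its rise between the younger and the older testis samples was at least 10.7-fold (limma adjusted p = 0.005), and no adjusted p under 0.05 was reached with a background offset of 50 (adjusted p = 0.076). ADAM18 read 3.04, 3.73, 5.74, 6.52 and 5.54 as the mean of 4 probes, of which 2 reached 8.68 and 9.10 in testis while the other 2 showed no such rise. The mean of the 4 probes rose by 2.74 ± 0.38 (SE, n = 2 against 2, limma adjusted p = 0.0067).

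ADAM30 and ADAM21 complete the textbook list of germ-cell ADAMs on the array. ADAM30 read 2.82, 3.24, 4.42, 4.80 and 4.40, just above its highest value elsewhere of 4.22 in bone marrow, and its rise in testis was at least 3-fold (limma adjusted p = 0.01, lost without the 4-month sample with an adjusted p of 0.071). Its 2 probes hardly moved together over the 80 arrays (r = 0.09). ADAM21, a close relative of ADAM20, stayed between 1.76 and 2.86 in testis and was detected nowhere.

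**Figure D2:**
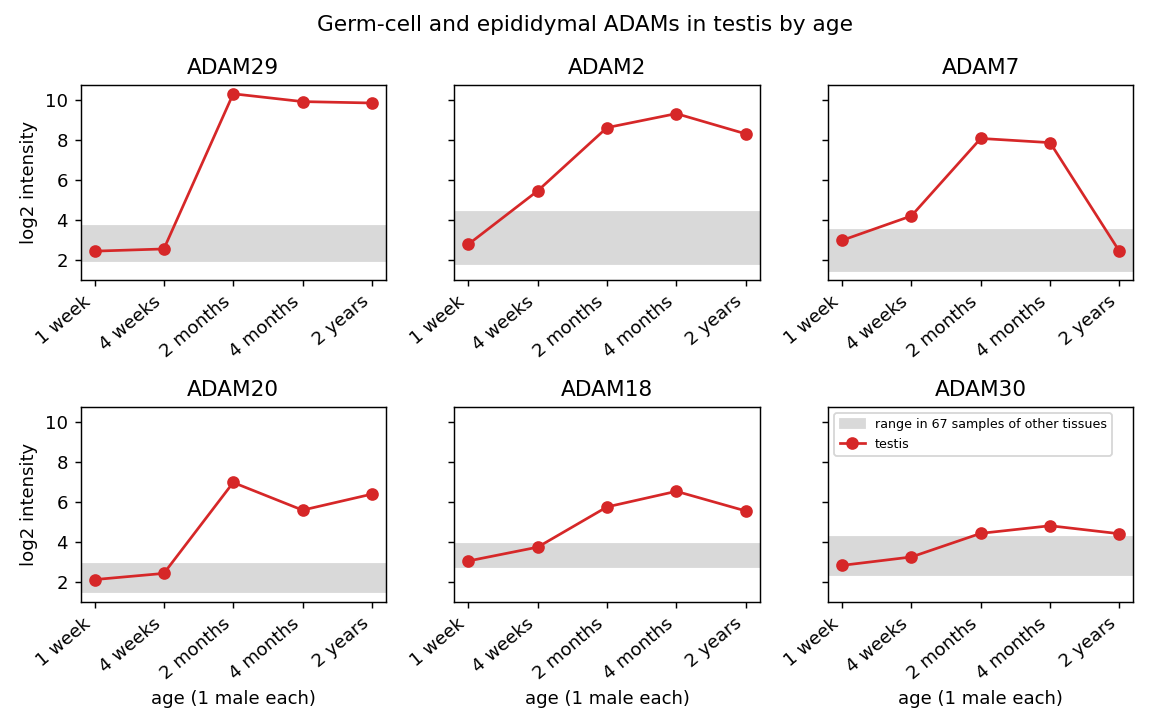
Log2 intensity of 6 ADAM genes in testis against age, 1 male per age (red points), with the range of the 67 samples of other tissues in grey. ADAM29, ADAM2, ADAM20 and ADAM18 stay high at 2 years, whereas ADAM7 falls back into the grey band, from 7.85 at 4 months to 2.42, and ADAM30 barely leaves it.

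By 2 months other genes of the germ line had risen as well. Of 9 spermatid and spermatocyte markers 7 were measured, and their mean log2 value was 4.39 and 5.18 in the first 2 testis samples and 11.67, 12.00 and 11.71 in the others. Of the genes that work with sperm ADAMs, 7 of the 12 listed were measured, and 6 of the 7 rose in testis at 2 and 4 months, where 14.5% of all genes rose. CALR3 and CLGN, chaperones of the endoplasmic reticulum that fold sperm ADAMs, read 5.35 and 6.23 at 1 week, 9.06 and 8.33 at 4 weeks and 12.84 and 10.41 at 2 months. At 4 weeks ADAM29, ADAM20 and ADAM18 read 2.54, 2.42 and 3.73, within the range of other tissues, whereas ADAM2 and ADAM7 read 5.44 and 4.19, above it. CLGN, CALR3, PDILT, PRSS55 and IZUMO1 also met the testis-only rule. ADAM3A, listed on the array by accession only and therefore outside the rule, was named through the RefSeq table of assembly Sscrofa11.1 after the fact. Its testis values were 2.17, 6.47, 12.58, 12.95 and 12.15, against at most 3.78 elsewhere, and it rose by 8.44 ± 1.35 (SE, n = 2 against 2, limma adjusted p = 0.0092).

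The remaining 47 members were not testis-only, and all but ADAM30 of those called in testis were lower in the older samples. Of the 52 members 22 were called between the younger and the older testis samples (42.3%, against 37.5% of all genes), 6 higher (14.5% of all genes) and 16 lower (22.9%). The 6 that rose are the 5 testis-only genes and ADAM30. Among the 16 that fell were TIMP1, TIMP2 and TIMP3, 3 of the 7 proteoglycan-cleaving ADAMTS genes, 2 of the 4 ADAMTS-like genes and 2 of the 4 membrane-type MMPs. No collagenase, gelatinase or matrilysin was called. The median change was -0.36 over the members and -0.20 over all genes. The number of calls ranged from 6 to 24 when each of the 4 testis samples was left out in turn, and was 13 with a background offset of 50.

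ADAMTS1, which cuts aggrecan and versican, read 7.08, 6.40, 4.94, 4.33 and 4.40 over the 5 ages in testis. The samples from 2 months on were all below the first 2, and the change was -2.11 ± 0.34 (SE, n = 2 against 2, limma adjusted p = 0.0097, 0.066 without the 4-month sample). ADAMTS17, an enzyme tied to eye and growth-plate matrix, read 7.34, 6.52, 4.46, 5.20 and 3.64 and fell by 2.10 on the log2 scale (limma adjusted p = 0.014, lost without the 2-month or the 4-month sample with an adjusted p of up to 0.069). MMP19 passed the test too, but with no spot above background in either group, and it is given no fold. The other 10 that fell outside the TIMPs and these 3 changed by between -1.89 and -0.84.

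TIMP1 fell from 7.95 at 1 week through 6.51, 5.40 and 4.93 to 5.17 at 2 years in testis, a change of -2.06 ± 0.51 (SE, n = 2 against 2, limma adjusted p = 0.029). TIMP2 read 10 and 10.03 before and 8.21 and 8.28 after 4 weeks, with 9.33 at 2 years, and fell by 1.77 on the log2 scale (limma adjusted p = 0.0044). Only the TIMP2 call held in each of the 4 leave-one-out fits. TIMP1 lost its call without the 2-month or the 4-month sample (change -2.78 to -1.35 over the 4 fits). TIMP3 read 12.01, 12.20, 11.38 and 11.13 up to 4 months and 12.19 at 2 years, back between its values at 1 and 4 weeks. Its fall of 0.85 up to 4 months (limma adjusted p = 0.034) lost its call in all 4 fits. Markers of other cell types moved with these genes. The mean log2 value of the fibroblast list (4 of 6 measured, 3 of the 4 lower) was 9.06 and 8.44 before and 6.77 and 5.99 after 4 weeks, and that of the macrophage list (4 of 5 measured, 2 of the 4 lower) was 6.02 and 5.62 before and 4.78 and 4.40 after. In each of these lists only 2 of the 4 measured genes were detected in any testis sample up to 4 months. Their part in the lower values was not tested.

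In ovary no member was called among the 4 samples with limma, where no gene of the array was called (0%), and 5 members had an unadjusted p under 0.05. The number called was 0 to 2 when each sample was left out. ADAMTS4, which fell in several other tissues, had a mean of 5.97 ± 0.10 at 1 and 4 weeks and 6.96 ± 1.24 at 2 and 4 months in ovary (SD, n = 2, limma adjusted p = 0.84).

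The second question was how the members change with age in the 7 tissues taken from both sexes. The 4 samples at 2 and 4 months were compared with the 4 at 1 and 4 weeks, which gave 364 tests of a member in a tissue. Of these 13 were called, 12 lower and 1 higher in the older samples. The calls fell on 8 members, and ADAMTS4 and ADAMTS6 were the ones called in more than 1 tissue. By tissue, 2 members were called in cerebellum (1 lower and 1 higher, where 1.34% of all genes were called lower, 0.957% higher and 2.29% in all), 1 lower in cortex (0.809%, 0.961% and 1.77%) and 2 lower in liver (1.13%, 0.683% and 1.81%). In the same order of background shares, 6 were lower in kidney (4.74%, 3.72% and 8.46%), 2 in spleen (1.56%, 1.55% and 3.11%) and none was called in bone marrow (0.097%, 0.637% and 0.733%) or hypothalamus (0% throughout). An unadjusted p under 0.05 was seen for 5 members in hypothalamus and 4 in bone marrow. In kidney the 6 of 52 come to 11.5%, and in liver and spleen the 2 of 52 to 3.85%.

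ADAMTS4, also called aggrecanase-1, cuts the proteoglycans aggrecan, brevican and versican. In cerebellum it read 9.66 in the female and 9.88 in the male at 1 week, 9.13 and 9.51 at 4 weeks, 8.44 and 8.43 at 2 months and 8.07 and 8.02 at 4 months. The older samples were all below the younger ones and both sexes moved alike, with a change of -1.30 ± 0.17 (SE, n = 4 against 4, limma adjusted p = 0.015). Without the male or the female at 4 months the call was lost (highest adjusted p = 0.06). In cortex the values were 10.01, 9.83, 9.93 and 9.94 before and 8.76, 8.73, 9.35 and 9.23 after 4 weeks, again without overlap (change -0.91 ± 0.15, limma adjusted p = 0.026). The cortex call is the least stable one, since it held in 1 of 8 leave-one-out fits (highest adjusted p = 0.075, lost without each sample except the 4-month female) and was lost with slide as a block (-0.89, adjusted p = 0.15). The 2-year male read 7.70 in cerebellum and 9.47 in cortex.

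As fitted, liver and kidney showed the widest changes of ADAMTS4. Over the alternatives run, the change ranged from -2.65 to -1.09 in liver, -3.07 to -1.12 in kidney and -1.72 to -1.17 in cerebellum, so this order was not kept in all of them. In liver the female and male values were 7.15 and 7.21 at 1 week, 6.12 and 6.86 at 4 weeks, then 4.51 and 5.42 in the 2-month pair and 4.44 and 4.62 in the 4-month pair, and the male at 2 years read 3.99. The older samples did not overlap with the younger ones, and the change was -2.09 ± 0.29 (SE, n = 4 against 4, limma adjusted p = 0.014), lost without the 1-week female or the 4-month male (highest adjusted p = 0.061). In kidney it read 7.46, 7.78, 6.35 and 6.18 before and 4.46, 5.93, 4.55 and 4.55 after 4 weeks. The groups did not overlap, although the 2-month male lay well above the other 3 older samples, and ADAMTS4 fell by 2.07 on the log2 scale (limma adjusted p = 0.022). Without the 1-week female, the 1-week male, the 2-month female or the 4-month male the kidney call was lost (highest adjusted p = 0.07), and likewise with a background offset of 50 (-1.12, adjusted p = 0.057).

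Spleen values of ADAMTS4 were 6.99, 6.57, 6.28 and 5.69 before and 4.34, 4.42, 5.33 and 5.02 after 4 weeks, without overlap (change -1.61 ± 0.32, SE, n = 4 against 4, limma adjusted p = 0.035). This call held in 2 of 8 leave-one-out fits, those without a 4-week sample (highest adjusted p = 0.1), and was lost with sex as a replicate block (adjusted p = 0.06). In hypothalamus, where ADAMTS4 is brightest, the groups did not overlap either, with means of 11.35 ± 0.43 and 10.63 ± 0.19 (SD, n = 4), but the limma adjusted p was 0.34. Bone marrow means were 7.65 ± 0.24 and 6.56 ± 0.67 with overlapping groups (adjusted p = 0.15), and the 2-year male read 8.07 there and 8.33 in testis, above every younger sample of both tissues. Oligodendrocytes express ADAMTS4. Of the 6 markers of that cell type 4 were measured, and their summed log2 level in cerebellum was 14.62 to 15.08 in the younger and 13.37 to 14.41 in the older samples, with none of the 4 called. In hypothalamus (15.73 to 16.00 and 15.73 to 15.95) and cortex (14.77 to 15.05 and 14 to 14.97) the younger and older sums overlapped. Fibroblast markers, 4 of 6 measured, had sums of 8.28 to 9.60 before and 6.31 to 7.60 after 4 weeks in cerebellum with 2 of 4 lower, 8.26 to 9.87 and 7.05 to 8.02 in cortex with 1 lower, 12.19 to 12.92 and 9.84 to 11.94 in liver with 2 lower, and 12.39 to 13.59 and 11.68 to 12.51 in spleen with 1 lower. Of the 4 fibroblast markers, 2 were detected in any of these samples in cerebellum, liver and spleen, and 3 in cortex. Of the 4 oligodendrocyte markers, 2 were detected in any of the samples in cerebellum and in cortex, and 3 in hypothalamus. The part of the oligodendrocyte and fibroblast markers in the ADAMTS4 results was not tested.

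**Figure D3:**
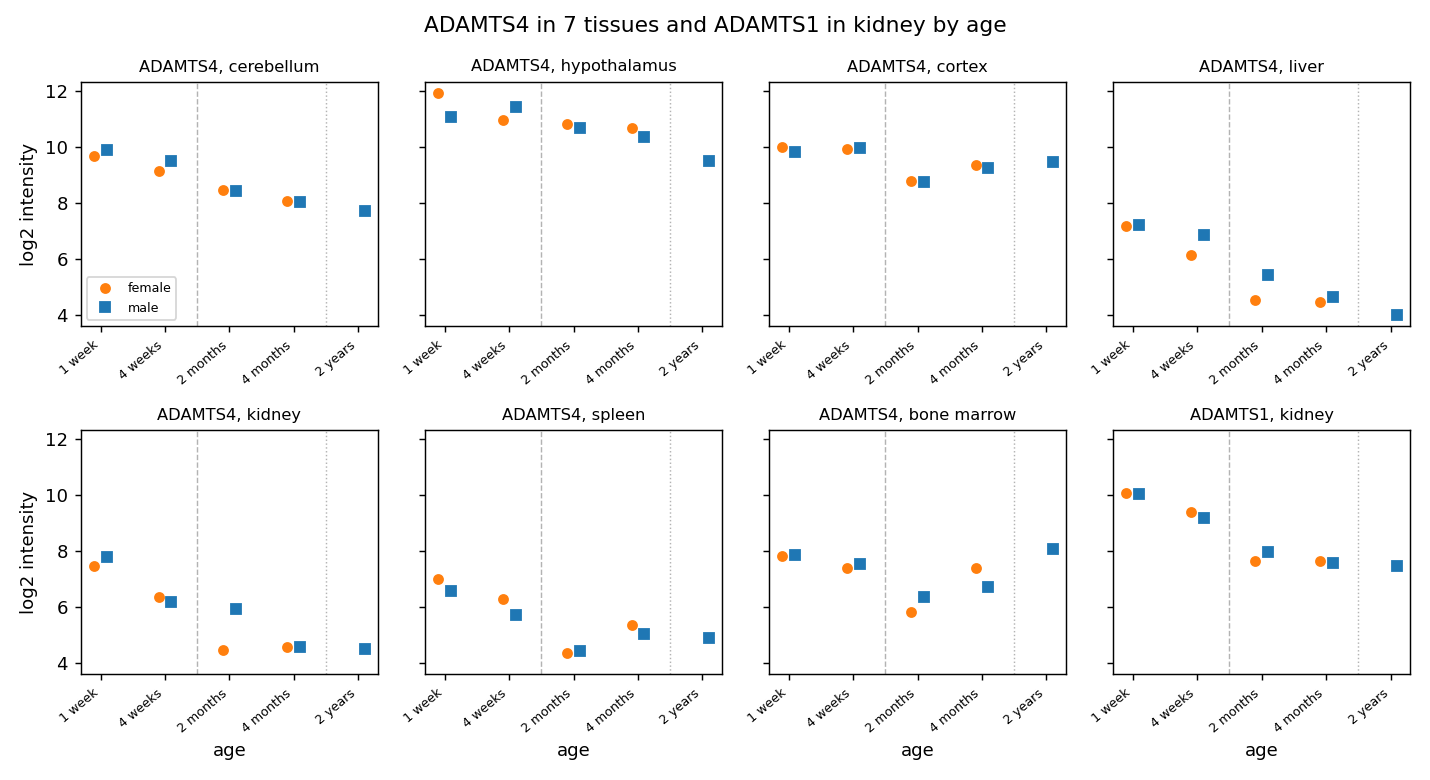
Log2 intensity of ADAMTS4 in 7 tissues and of ADAMTS1 in kidney against age, 1 female (circles) and 1 male (squares) per age up to 4 months and 1 male at 2 years. The dashed line separates the younger and older samples of the test and the dotted line the 2-year male. In every panel except bone marrow the points right of the dashed line lie below those to its left.

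Kidney held 6 of the 13 calls. ADAMTS1 read 10.06, 10.03, 9.40 and 9.16 before and 7.62, 7.96, 7.63 and 7.55 after 4 weeks, and 7.47 at 2 years. No older sample reached the younger ones, and the change was -1.97 ± 0.22 (SE, n = 4 against 4, limma adjusted p = 0.0038). ADAMTS17 read 6.46, 6.83, 6.52 and 6.61 before and 5.78, 5.46, 5.29 and 4.68 after, without overlap (change -1.30 ± 0.22, limma adjusted p = 0.011). Both calls held in all 8 leave-one-out fits, and with slide as a block the adjusted p of ADAMTS17 was 0.11 (-0.99).

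The other 3 calls in kidney were ADAM19, ADAMTS6 and MMP16, named after their values were seen. ADAM19, a sheddase of neuregulins, read 6.97, 6.91, 5.62 and 6.30 before and 5.63, 5.05, 4.79 and 5.24 after 4 weeks, so that the groups overlapped, and fell by 1.27 on the log2 scale (limma adjusted p = 0.033, lost in 5 of 8 leave-one-out fits, without either 1-week sample or the male at 4 weeks, 2 months or 4 months, with an adjusted p of up to 0.097). ADAMTS6 fell by 0.88 (limma adjusted p = 0.023, lost without either 1-week sample or the 4-month male with an adjusted p of up to 0.073). MMP16, a membrane-type MMP, fell by 1.01 (limma adjusted p = 0.016, up to 0.052 without the 1-week or the 4-month male), and its adjusted p was 0.16 with slide as a block and 0.13 with the processed signal of the scanner software. Fibroblast markers were lower in the same samples. Of the 6 listed, 4 were measured and 3 of the 4 fell in kidney. Only 2 of the 4 were detected in any of these samples, so not every fall was that of a detected gene. Their summed log2 level was 11.97 to 14.23 in the younger and 10.50 to 11.39 in the older samples. Their part in the 6 calls was not tested.

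Each of the 3 calls left belongs to a different tissue. ADAMTS13, the plasma protease that trims von Willebrand factor, was the 1 member that rose with age, in cerebellum, from 6.45, 6.33, 7.11 and 6.51 to 7.54, 7.73, 7.35 and 7.32, with 8.58 in the 2-year male (change 0.89 ± 0.18, SE, n = 4 against 4, limma adjusted p = 0.037). No older sample fell below 7.32 and the highest younger one was 7.11, yet the call held in only 2 of 8 leave-one-out fits, those without the 4-week female or the 2-month male (highest adjusted p = 0.11), and its adjusted p was 0.051 to 0.09 under other backgrounds and scalings. ADAMTS6 in liver read 5.43, 4.94, 4.61 and 4.61 before and 4.06, 3.52, 3.09 and 3.31 after 4 weeks. None of its spots was above background in the older samples, so the fall was at least 2.29-fold (limma adjusted p = 0.029, lost in 5 of 8 leave-one-out fits, without either 1-week sample, the 2-month male or either 4-month sample, with an adjusted p of up to 0.099).

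MMP8, the collagenase stored in neutrophil granules, fell in spleen from 5.23, 5.21, 4.64 and 5.01 to 4.02, 3.71, 3.04 and 3.97 (change -1.34 ± 0.24, SE, n = 4 against 4, limma adjusted p = 0.027). The groups did not overlap, and the call held in 2 of 8 leave-one-out fits, those without a 4-week sample (highest adjusted p = 0.082), and not with sex as a replicate block (adjusted p = 0.05). Over all alternatives the change ran from -1.72 to -0.20 (limma adjusted p up to 0.21), and with a background offset of 50 no member was called in spleen. Its 2 probes averaged 5.93 and 2.78 in spleen, and the dimmer one was above background on 12 of the 80 arrays. Of 8 neutrophil markers 5 were measured in spleen, where their summed log2 level was 9.78 to 13.56 in the younger and 8.83 to 9.61 in the older samples and 1 of the 5 fell. Erythroid markers, all 5 measured, went from 9.17 to 13.67 down to 7.34 to 8.03 in the same samples with 1 of 5 called. Their part in the MMP8 result was not tested. Of the 13 calls in the 7 tissues, 10 held with slide as a block and all 13 kept their direction.

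The third comparison set each of the 7 tissues against the mean of the other 6, with 8 samples per tissue. Members counted as higher or lower where the limma adjusted p was under 0.05 and the difference at least 1 log2 unit. A gene that is very bright in 1 tissue is counted lower in others by this construction, as MMP13 was in 5 tissues. Counts of higher and lower members were 4 and 9 in cerebellum (9.75% and 10.1% of all genes), 7 and 7 in hypothalamus (9.82% and 7.85%), 8 and 6 in cortex (10.6% and 9.4%), 7 and 10 in liver (9.83% and 11.5%), 4 and 9 in kidney (8.89% and 8.95%), 8 and 7 in spleen (8.8% and 10.1%) and 9 and 8 in bone marrow (10.4% and 12%). Which genes made up the counts differed between tissues. A background offset of 50 draws dim values together and left smaller differences, among those described next 2.87 for MMP8 in bone marrow, 1.70 for ADAM8 in spleen, 1.56 and 1.72 for ADAMTS8 in spleen and cortex, 1.47 for ADAMTSL4 in liver, 2.05 for ADAM22 in cerebellum, and 1.38 and 1.10 for ADAM23 in cortex and hypothalamus.

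MMP13, MMP8 and ADAM8 were higher in bone marrow than in the other tissues, whereas the third collagenase, MMP1, averaged 2.84 there and was not called (difference 0.16, limma adjusted p = 0.43). MMP13, a collagenase of bone-resorbing and cartilage-remodelling sites, ranged from 10.46 to 12.54 in the 8 bone marrow samples with a median of 10.86, and reached at most 4.17 in the other 6 tissues. It was at least 192-fold higher than in cerebellum, 219-fold than in liver, 246-fold than in cortex and 277-fold than in hypothalamus, tissues in which no spot was above background. The fit over the other 6 tissues together, which depends on how those dim values are treated, gave 8.06 (limma adjusted p = 4.2e-43), and 5.32 with a background offset of 50. Ovary was the one other tissue with MMP13 detected in each sample, from 4.20 to 6.72.

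MMP8 ranged from 8.31 to 9.23 in bone marrow (median 8.80) and from 3.04 to 6.54 in the 6 other tissues, a difference of 4.78 ± 0.20 (SE, limma adjusted p = 4.9e-28). Its 2 probes disagree, since one averaged 11.06 in bone marrow and at most 3.48 elsewhere, whereas the other averaged 6.58 and lay above background on all 80 arrays. ADAM8, a sheddase of leukocytes, read 9.13 to 10.02 in bone marrow (median 9.65) and 8.27 to 8.75 in spleen (median 8.49), and at most 6.08 in the other 5 tissues. The difference was 3.99 ± 0.14 in bone marrow (limma adjusted p = 1e-31) and 2.64 ± 0.14 in spleen (adjusted p = 9.6e-24). Spleen and bone marrow did not overlap with each other or with the rest.

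MMP3, known as stromelysin-1 and an activator of other MMPs, was highest on average in spleen, overlapping with bone marrow. Its 8 spleen values ran from 4.22 to 9.51 with a median of 6.84, the widest spread among the members named here in that tissue. It was at least 10.4-fold higher than in liver and 15.5-fold than in hypothalamus, where no spot was above background. The fit over the other 6 tissues, of which 5 had no spot above background, gave 3.80 (limma adjusted p = 8e-10), and 1.51 with a background offset of 50. In bone marrow MMP3 was high at 1 week, with 8.62 in the female and 10.02 in the male, then 2.57 to 3.78 from 4 weeks to 4 months and 6.05 in the 2-year male. Joined as younger and older samples these groups overlapped (limma adjusted p = 0.41). ADAMTS8, a proteoglycanase, ranged from 6.74 to 8.51 in spleen and overlapped there with cortex (difference 2.75 ± 0.29, limma adjusted p = 4.1e-12).

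**Figure D4:**
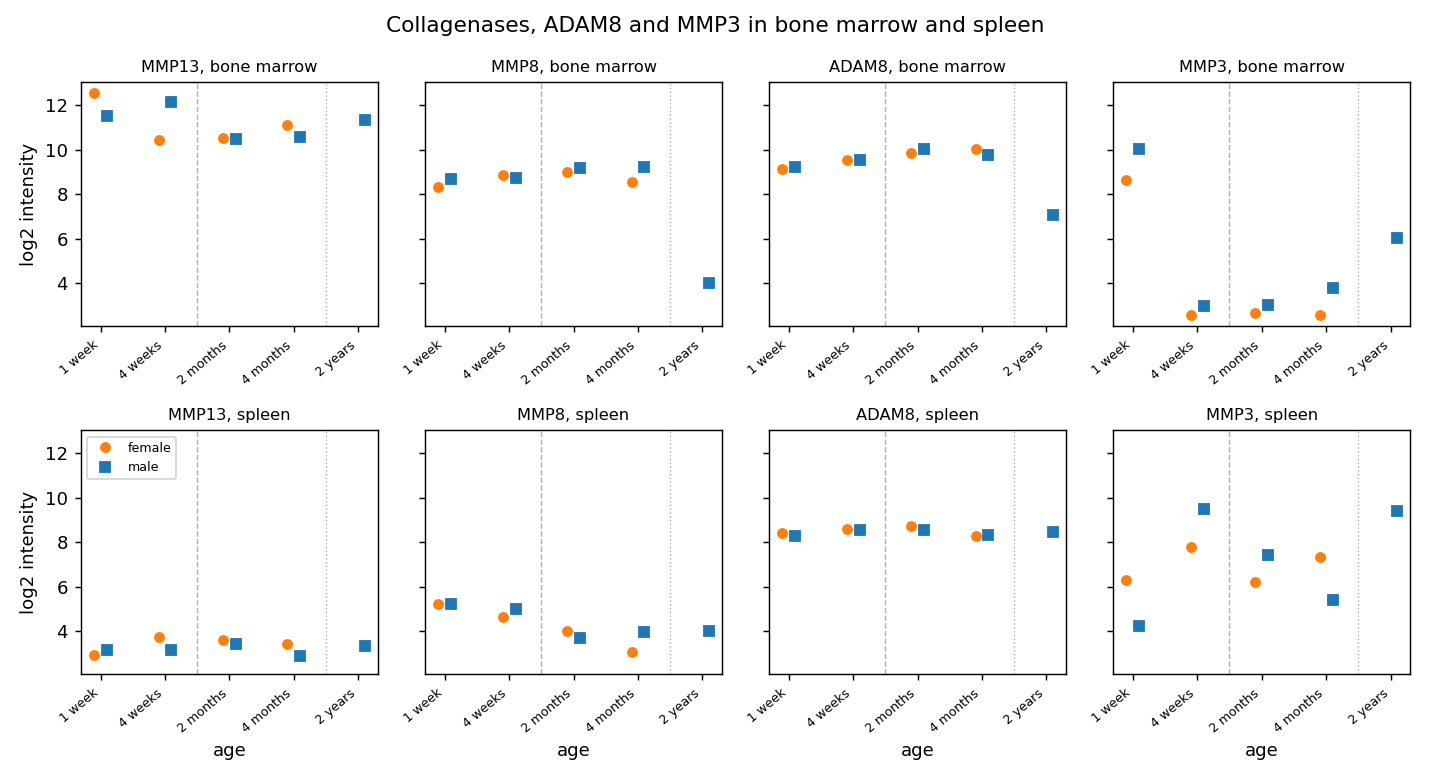
Log2 intensity of MMP13, MMP8, ADAM8 and MMP3 in bone marrow (top) and spleen (bottom) against age, 1 female (circles) and 1 male (squares) per age, with the 2-year male right of the dotted line. MMP8 and ADAM8 in bone marrow drop at 2 years, to 4.01 and 7.07, while MMP13 stays at 11.32, and MMP3 in bone marrow is high at 1 week.

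The 2-year bone marrow stood apart. MMP8 read 4.01 there, ADAM8 7.07, TIMP2 10.50 and TIMP3 12.62, whereas MMP13 at 11.32 lay within the range of the younger samples. Against all 8 younger samples, 4 members lay higher by more than 1 log2 unit (ADAMTS1, MMP19, TIMP2 and TIMP3, with 6.21% of all genes) and 3 lower (ADAM8, ADAMTS19 and MMP8, with 5.21%). The 5 neutrophil markers had a mean log2 value of 7.17 in this library against 11.89 to 12.67 in the other 8, and the 5 erythroid markers 3.91 against 8.72 to 9.88. Of the 4 osteoclast markers, CTSK lay above its range in the younger samples (13.87 against 10.39 to 13.46), ACP5 below (4.96 against 5.09 to 5.85) and CALCR and ATP6V0D2 within. Of the 5 osteoblast and osteocyte markers, RUNX2 and DMP1 lay above and the other 3 within. The part of these markers in the member values was not tested, and age and slide cannot be told apart for this male. ADAMTSL3 in spleen was the 1 member that lay past this margin at 2 years in another tissue, and it and ADAMTS19 were named after their values were seen.

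MMP19, ADAMTS13 and ADAMTSL4 stood highest above the other tissues in liver. Among the 10 members called lower there were ADAMTS4, ADAMTS6, ADAMTS8 and ADAMTS17, picked after their values were seen. Of the 7 tissues, liver had the lowest mean for ADAMTS6 and ADAMTS17, but spleen for ADAMTS4 and bone marrow for ADAMTS8. MMP19, a soluble MMP without a close subgroup, read 5.80 to 7.14 in liver with a median of 6.37, and its highest value elsewhere in the 7 tissues was 5.18 in spleen, where it was detected in 2 of 8 samples. It was at least 9.79-fold higher than in cortex and 13.1-fold than in hypothalamus, where no spot was above background. Since this holds for 5 of the 6 other tissues, the fitted difference is no measure of size, and it was 5.22 as fitted (limma adjusted p = 1.7e-17) and 1.35 with a background offset of 50. ADAMTS13, made in liver by stellate cells, ranged from 9.37 to 10.26 there (median 9.69) and reached at most 8.57 in the other tissues (difference 2.82 ± 0.16, limma adjusted p = 3.3e-22). ADAMTSL4, a binding partner of fibrillin, ranged from 6.44 to 7.64 (median 6.74) against at most 5.87 elsewhere (difference 2.59 ± 0.09, limma adjusted p = 8.4e-33). These values average 4 probes that disagree, with liver means of 9.64, 9.63, 3.62 and 4.55. The third of them was above background on 0 of the 80 arrays.

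Kidney was highest for ADAMTS1, with values from 7.55 to 10.06 that overlapped with the other tissues, where ADAMTS1 reached 9.37 (difference 2.91 ± 0.25, SE, limma adjusted p = 4.6e-15). MMP7, or matrilysin, ranged from 5.02 to 6.26 in kidney and overlapped with liver, where it ranged from 4.00 to 6.50 (difference 1.77 ± 0.16, limma adjusted p = 2.8e-14). With a background offset of 50 the MMP7 difference was 0.60, below the limit of 1.

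In the brain the leading members were ADAMTS4 and the catalytically inactive ADAM22 and ADAM23, neuronal receptors of the LGI proteins. ADAM22 ranged from 8.32 to 9.42 in cerebellum (median 8.88), 7.24 to 8.02 in cortex and 6.84 to 7.42 in hypothalamus, against at most 7.02 in the other 4 tissues. The cerebellum samples did not overlap with any other tissue (difference 3.09 ± 0.14, SE, limma adjusted p = 3.4e-26), although all 4 probes are open to cross-hybridization. ADAM23 ran the other way among the brain regions, with 6.98 to 7.66 in cortex (median 7.40), 6.55 to 7.33 in hypothalamus (median 7.06) and 5.09 to 5.56 in cerebellum, which overlapped with liver (5.28 to 6.32). Its difference was 2.89 ± 0.10 in cortex (limma adjusted p = 7.8e-32) and 2.49 ± 0.10 in hypothalamus (adjusted p = 1.1e-28).

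ADAMTS4 was brightest in hypothalamus, from 10.35 to 11.91, above all 48 samples of the other 6 tissues, which reached 10.01 at most (difference 3.86 ± 0.33, SE, limma adjusted p = 4.4e-15). It also exceeded the other tissues in cortex (2.09 ± 0.33, limma adjusted p = 2.3e-07) and cerebellum (1.42 ± 0.33, adjusted p = 0.00021, 0.94 with a background offset of 50). ADAMTS8 ranged from 7.09 to 9.22 in cortex (median 8.01), overlapping with spleen and hypothalamus (difference 2.94 ± 0.29, limma adjusted p = 4.6e-13).

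The TIMPs differed from one another in where they were found. TIMP3, which binds to the matrix, was brightest in spleen (11.37 to 12.96, median 12.12) and kidney (11.68 to 12.55, median 12.08) and lowest in cerebellum (9.48 to 10.44), with differences of 1.42, 1.40 and -1.20 (SE 0.13 each, limma adjusted p = 9.7e-14, 1.6e-13 and 2.4e-11). TIMP2, an activator of MMP2 as well as an inhibitor, was highest in hypothalamus (9.39 to 10.21, median 9.80, difference 1.97 ± 0.19, limma adjusted p = 5.5e-13) and cortex (9.03 to 9.69) and lowest in liver (5.52 to 6.93, difference -1.98, adjusted p = 2.9e-13). TIMP1 was highest in bone marrow among the 7 tissues (7.35 to 9.71, median 8.47, difference 2.07 ± 0.17, limma adjusted p = 8.7e-16), and ovary reached 8.97 to 10.40. TIMP4 was the 1 dim member of the family, detected in 4 of 8 cerebellum samples (4.22 to 4.79) and in none of the other 48, with a difference of 1.48 ± 0.13 (limma adjusted p = 2.1e-14) that shrank to 0.31 with a background offset of 50.

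With age the 4 TIMPs changed little in the 7 tissues. None of their 28 tests was called with limma, changes ran from -0.67 to 0.53, the lowest adjusted p was 0.11, and 6 of the 28 had an unadjusted p under 0.05. The falls of TIMP1, TIMP2 and TIMP3 up to 4 months described above were seen in testis, and the difference between testis and the other tissues was not tested.

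**Figure D5:**
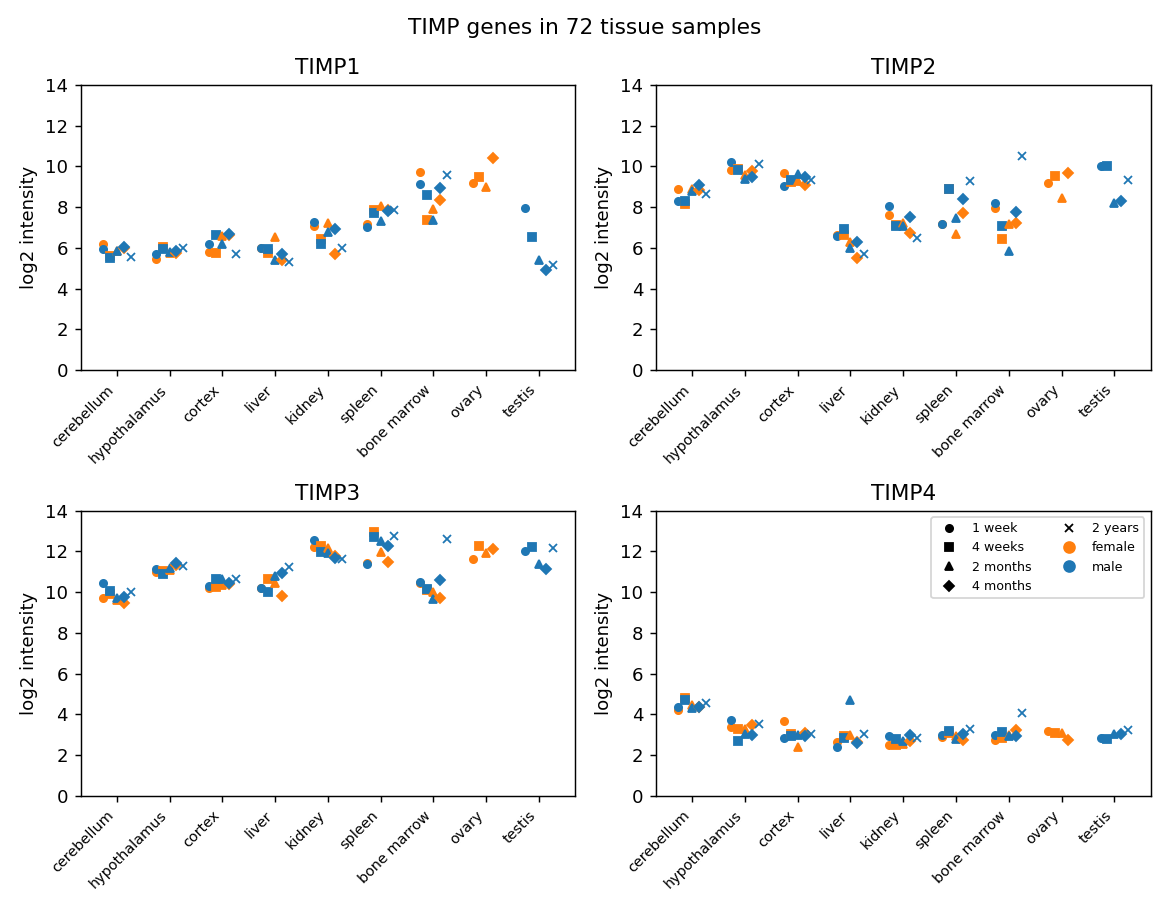
Log2 intensity of TIMP1 to TIMP4 in the 72 tissue samples, by tissue, with symbols for age and colors for sex. TIMP3 lies between 9.48 and 12.96 in every sample, TIMP2 of bone marrow rises to 10.50 in the 2-year male, and TIMP4 leaves the background in cerebellum.

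One renal pelvis array was read beside the technical repeats of the 2-year kidney, without a test. There 3 of the 52 members, MMP1, TIMP3 and ADAMTS4, lay at least 2 log2 units above kidney, as did 0.953% of all genes. The age change of ADAM8 differed between bone marrow (0.55) and liver (-0.93) by 1.47 ± 0.30 (SE, limma adjusted p = 0.0021), a contrast in which 6.53% of all genes were called. The contrast was chosen after the ADAM8 values had been seen.

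The sexes were set against each other in 28 pairs that share tissue and age. No member was called with limma, where 0.253% of all genes were, 4 members had an unadjusted p under 0.05, the lowest adjusted p was 0.36 and the largest difference was 0.28 log2 units.

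Other genes of these pathways were taken from fixed lists. Of the 17 matrix protease partners, such as activators of plasminogen and the membrane inhibitor RECK, 9 were measured, and 1 fell in cerebellum (1.34% of all genes did), 1 in kidney (4.74%) and none in the other 5 tissues. Of the 9 partners of ADAM10 and ADAM17, such as the tetraspanins and the inactive rhomboids that guide these sheddases, 6 were measured, and 1 rose in liver (0.683% of all genes did) and 2 in kidney (3.72%). In testis 3 of the 9 and 3 of the 6 fell, with 22.9% of all genes. None of the 7 measured sperm ADAM partners was called with limma in the 7 other tissues.

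Listing by accession left further relatives outside the rule. Of the 10818 genes listed so, 3019 could be named through the RefSeq table, and 8 of them were ADAM, ADAMTS, MMP or TIMP genes. ADAM17 and MMP20 were listed in both ways, and the 2 entries correlated with r = 0.93 and 0.63 over the 72 samples. ADAM10 and ADAM15, broadly expressed ADAMs, were detected in all 72 samples, from 5.41 to 7.98 and from 4.93 to 8.86. In the order of genes on assembly Sscrofa11.1, MMP8, MMP1, MMP3, MMP12 and MMP13 follow one another directly, yet MMP8 and MMP13 were bright in bone marrow, MMP3 in spleen and in the 1-week bone marrow, where it had its highest value of all (10.02), and MMP1 and MMP12 were detected in 2 and 0 of the 72 samples.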

How the data were processed

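Gene expression in 9 tissues was read on 80 one-colour (Cy3) arrays, of which 72 are tissue samples. Per the file headers and the submitters' processing notes, the authors extracted spot values from the array scans with Agilent Feature Extraction 11.5.1.1, and the deposited spot values are intensity values not normalized between arrays. The deposited value table holds log2 processed signals brought by the authors to a common distribution (median 4.566 in each column), and was used as an alternative. Here the median spot intensity was background corrected (normexp, offset 0), quantile normalized over gene and negative control spots and taken to log2 with limma 3.58.1 in R 4.3.3. Spots that the deposited 0 or 1 flags marked as non-uniform, population or manual outliers were left out. Repeated spots and then probes of a gene were averaged.

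Linear models with empirical Bayes moderation were fitted across 23722 genes with Benjamini-Hochberg adjustment, and calls needed an adjusted p under 0.05. The 2-year samples lie on 2 slides of their own and entered no main test, only alternative fits that added them to the older group. The labels do not tie samples to animals, so p-values measure the spread between these samples. The number of arrays limits the precision. A gene varied by an SD of 0.115 log2 units (median over genes) across the 8 technical repeats of 1 kidney. Negative control spots had median intensities of 17 to 25.

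Members and lists were chosen with earlier results of these data known. Genes named are all TIMPs, testis-only members, germ-cell ADAMs, the 3 members with the largest called age changes in each direction per tissue, the 3 highest above the other tissues per tissue, and those called for sex. The scripts were tested on simulated data. Alternatives changed the background, scaling, probe summary, filter, blocks, samples and thresholds. Protein features were not used here, since no protein sequence table was given.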

Additional observations from a re-analysis of the deposited data

Results flagged for a closer look

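Among 47 groups of 4 or 8 samples tested for a single sample far from the rest, 2 held one, and chance flags about 1 in 20 groups. The same samples recur in several of these groups. ADAMTS4 read 5.93 in the 2-month male kidney, whereas the other 3 older kidney samples read 4.46 to 4.55. ADAMTS13 read 10.26 in the 4-week male liver, whereas the other 7 liver samples read 9.37 to 9.75.

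ADAM8 had age changes of opposite sign in bone marrow and liver. It was the 1 member of 27 compared whose younger and older samples separated in opposite directions. Only part of the members was compared, and the share of all genes that separate in this way was not counted. The count therefore has no background and is given as a description only. Bone marrow read 9.13, 9.22, 9.55 and 9.54 at 1 and 4 weeks and 9.84, 10.02, 10.02 and 9.75 after, a change of 0.55, and liver read 5.80, 6.08, 5.35 and 6.02 and then 5.28, 4.95, 4.77 and 4.55, a change of -0.93. The younger and older samples did not overlap in either tissue. In liver the summed log2 level of the 5 neutrophil markers was 9.63 to 12.78 before and 9.18 to 9.62 after 4 weeks (1 of 5 lower, median change -1.05) and the median change of the erythroid markers was -1.89 with 0 of 5 called, whereas in bone marrow the neutrophil median change was -0.28. Their part in the ADAM8 values was not tested. Neither change was called alone (limma adjusted p = 0.15 and 0.06), and the difference between them was 1.47 ± 0.30 (SE, limma adjusted p = 0.0021, with 6.53% of all genes called). This contrast was chosen after the ADAM8 values had been seen, so its p-value gives no independent support.

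One array held renal pelvis and entered no comparison. MMP1, an interstitial collagenase, read 7.14 there, against 2.52 to 3.20 in the technical repeats of the 2-year kidney and at most 4.62 in the 72 tissue samples. TIMP3 read 13.95, against 11.58 to 11.64 in the kidney repeats, and ADAMTS4 read 7.58, against 4.33 to 4.71. These 3 of 52 members lay 2 or more log2 units above the kidney repeats, as did 0.953% of all genes, and 0 lay as far below. With 1 array there is no test.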

How the results depend on the processing

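No result reversed its direction under any alternative run. Of 245 alternative values of single age changes in the 7 tissues 177 kept their side of the threshold, as did 97 of 123 in the gonads and 375 of 378 between tissues. Counts of members called moved more. With an offset of 50, tissue counts were 4 in cerebellum, 4 in hypothalamus, 5 in cortex, 7 in liver, 7 in kidney, 9 in spleen and 8 in bone marrow (13, 14, 14, 17, 13, 15 and 17 as reported), testis-only members 3 (5), and age calls 13 in testis (22), 1 in cerebellum (2), 1 in liver (2) and 0 in spleen (2). Age calls in cerebellum were 1 with the processed signal, median scaling or the deposited value table, 6 with genes detected in at least 4 samples and 4 in one fit over 56 samples. Cortex had 2 with the deposited table and 2 with that filter (1), testis 10 with the filter, and spleen 1 with the processed signal. One fit over 56 samples gave 10 in liver, 10 in kidney (6), 5 in spleen and 7 in bone marrow (0), and slide as a block in it gave 0 in cortex, 10 in liver, 5 in spleen and 5 in bone marrow. At 4 months against 1 week there were 6 in cerebellum, 0 in cortex, 6 in liver, 7 in spleen and 3 in bone marrow. Sex as a replicate block gave 4 in cerebellum and 0 in spleen, and the labels' numbers do not tie samples to animals. Leaving out each sample in turn gave 0 to 6 age calls in cerebellum, 0 to 0 in hypothalamus, 0 to 1 in cortex, 0 to 4 in liver, 2 to 7 in kidney, 0 to 2 in spleen, 0 to 1 in bone marrow, 6 to 24 in testis and 0 to 2 in ovary. The same for tissue counts gave 11 to 13 in cerebellum, 12 to 14 in hypothalamus, 13 to 14 in cortex, 15 to 18 in liver, 12 to 14 in kidney, 14 to 15 in spleen and 15 to 18 in bone marrow, and 0 to 1 for sex. The causes were not tested. Values near the negative controls limit what dim members can show.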
